A study of Enchytraeus crypticus with 30 samples.

Results

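The direct comparison described here was that of nickel nanoparticles (Ni-NPs) with nickel nitrate (NiNO3) in the soil worm *Enchytraeus crypticus* after 3 days of exposure at the EC50, the concentration that lowers reproduction by 50%. The members are the 6 arrays of these 2 groups, 3 labelled Ni-NPs EC50 and 3 labelled NiNO3 EC50, out of 30 arrays in 10 groups of 3. Each array held the total RNA of a pool of 20 whole adult worms with a well-developed clitellum, kept in LUFA 2.2 soil. The control of the same day was un-spiked LUFA 2.2 soil, and it did not enter the direct comparison. Both groups were exposed to nickel at a concentration set by its effect, so the mass of nickel in the soil was not equal. By the study's methods the nominal nickel concentration was far higher for the particles, which were mixed in as a powder, than for the nitrate, which was added in water. Other exposures of the same design were the EC20 at day 3 and the EC50 and EC20 at day 7, each in both forms. The EC20 groups of day 7 entered the fit but no comparison described here.

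Nickel nitrate is a soluble salt that releases nickel ions at once, whereas metallic nickel particles dissolve slowly and can meet the animal both as particles and as ions. Enchytraeids are small annelids that take up metals through the skin from pore water and through the gut with ingested soil, and dissolved metal ions are bound in cells by metal-binding proteins and can displace other metals from enzymes. Comparing forms at an equal effect on reproduction asks whether animals harmed to the same degree differ in their transcripts. The RNA came from whole bodies, so fewer cells of a type and less RNA per cell cannot be told apart. The probes are named after the assembled sequence (contig) or the single sequencing read (names starting with GYUW2K4) that they were designed on, and no gene name, tissue marker or sequence was used here.

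A total of 24653 of the 43750 gene probes had a signal positive and significant on all 30 arrays and were tested. Levels are log2 intensities relative to the median probe of the same array, so that 0 is the median probe and a difference of 1 is 2-fold. Differences are Ni-NPs minus NiNO3 throughout, and p-values come from limma fitted to all 30 arrays, with Benjamini-Hochberg adjustment over all probes tested and a threshold of 0.05.

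The 6 arrays differed in how many probes they detected. The 3 Ni-NPs arrays had 32226, 34804 and 29661 probes with a positive and significant signal, and the 3 NiNO3 arrays 35333, 36141 and 39144, so that the groups did not overlap in this number. The share of probes well above background was 49.8%, 55.9% and 44.9% against 56.4%, 58.3% and 71.2%. NiNO3 replicate 3 stood apart from the other 5: pairs of arrays within the Ni-NPs group correlated between 0.984 and 0.986, pairs within the NiNO3 group between 0.967 and 0.982, and pairs across the groups between 0.966 and 0.986. The pairs that held it reached at most 0.969. It was also the array of the 6 with the largest deviation from its group mean (SD over probes 0.433, against 0.275 to 0.347), and the only 1 scanned on the third scan day, on a slide with replicate 3 of the control. The part of detection, slide and scan day in the results below was not tested beyond the values given beside them.

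No gene probe passed the threshold between Ni-NPs and NiNO3 at EC50 and day 3 (0 of 24653, 0%). The lowest adjusted p was 0.0665 with limma. If no probe differed, a share of 0.05 of the probes would be expected at an unadjusted p under 0.05. There were 782 such probes (3.17%), which is no excess over that share, 304 higher and 478 lower in Ni-NPs. The split was 10 and 562 with scaling to spike-in transcripts, 189 and 606 with MedianCD and 133 and 787 with SVCD, the last pair being the normalisations of the study, which scale on genes found not to vary between conditions. The majority turned without NiNO3 replicate 1, with 659 higher and 579 lower (1238 in all), and with normexp background correction, with 89 and 66 (155 in all). Without NiNO3 replicate 3 there were 517 probes, 150 higher and 367 lower. The equal-variance test named in the methods, run on the 6 arrays, also gave 0 probes after adjustment and 1225 before it, of which 678 were higher and 547 lower. The direction of this majority thus depended on the processing and on single arrays. In 3160 probes (12.8%) the 3 arrays of one form lay wholly above those of the other, 1818 with Ni-NPs higher and 1342 with Ni-NPs lower.

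The differences were small for most gene probes. Their median was 0.03, their median size was 0.20, and 95% of them lay between -0.85 and 0.69, on the log2 scale. A difference larger than 1 was measured for 484 probes (1.96%), of which 323 were lower and 161 higher in Ni-NPs, and 10 probes exceeded 2. The median standard error of a difference was 0.31 and the median half-width of its 95% interval was 0.65. For 15171 probes (61.5%) this interval lay wholly between -1 and 1, and for 23619 (95.8%) wholly between -2 and 2. A single probe with the median standard error would have passed the adjustment by itself only from a difference of 1.96 on, a 3.89-fold change. These standard errors rest on a spread shared by all 10 groups. The median SD of a probe was 0.19 in Ni-NPs and 0.31 in NiNO3 here, and up to 0.45 in other groups. Fitted to the 6 arrays alone, limma gave 547 higher and 775 lower probes at an unadjusted p under 0.05. The lowest adjusted p of that fit was 0.82. Smaller differences were mostly not detectable with 3 arrays a group and this shared spread, and the absence of calls does not show that the forms act alike.

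**Figure D1:**
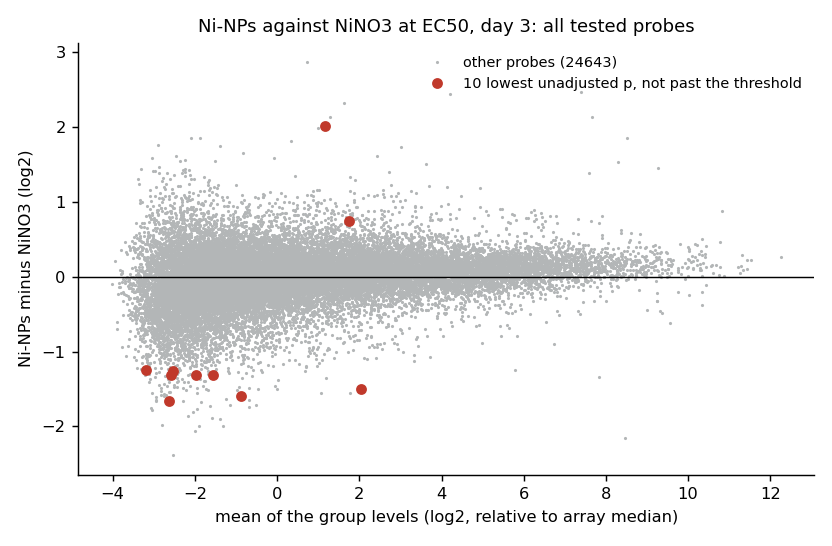
Difference of Ni-NPs minus NiNO3 at EC50 and day 3 (log2, vertical axis) against the mean of both group levels (log2 relative to the array median, horizontal axis) for the 24653 probes tested. Red points are the 10 probes with the lowest unadjusted p, none past the threshold. Of these, 8 lie below 0, mostly among the dim probes at the left, where the differences spread most.

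The spread of the differences depended on the level. In the 8218 probes with the lowest levels the median half-width of the interval was 0.89 and 4735 probes were lower in Ni-NPs. In the 8218 probes with the highest levels the median half-width was 0.48, 5507 probes were higher in Ni-NPs, and the intervals of 87.2% of the probes lay between -1 and 1. Of the probes with a difference larger than 1, 315 were among the former and 51 among the latter. Probes on assembled contigs (12551) and on single reads (12102) had unadjusted p under 0.05 in 3.08% and 3.26% of cases. Dim probes thus leaned toward NiNO3, whose arrays also had more probes detected, and the part of detection in this lean was not tested.

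At day 3 each form had probes past the threshold against the control, more in each case than the direct comparison. No Ni-NPs array shared a slide with a control array, and of the NiNO3 arrays only replicate 3 did. Change from the control and slide thus cannot be fully told apart here. Fewer probes passed for both forms with slide as a fixed block, as given below. NiNO3 EC50 minus control gave 178 probes (0.722%), 84 over-expressed and 94 under-expressed. Ni-NPs EC50 minus control gave 57 probes (0.231%), 29 over-expressed and 28 under-expressed. The directions depended on the scaling: the share above the control was 47.2% for NiNO3 and 50.9% for Ni-NPs, but 84.3% and 81.7% with MedianCD, 77.3% and 65.5% with SVCD, 77.8% and 60.0% with spike-ins and 33.9% and 31.3% with normexp. The counts rested on single arrays: the NiNO3 count was 89 without its replicate 2 and 69 without its replicate 3, and the Ni-NPs count was 17, 34 and 22 without its replicates 1, 2 and 3. The higher NiNO3 count does not rank the forms, since other measures ran the opposite way. Against the control, 11.0% of all probes in Ni-NPs and 9.68% in NiNO3 had an unadjusted p under 0.05 with limma. Differences larger than 1 were found in 5.61% and 4.19%, and groups that did not overlap in 25.1% and 16.2%. Both comparisons share the control arrays, so the values are given side by side and the lists are not set against each other. A probe past the threshold in one form and not in the other is not thereby shown to differ between them, and for these probes the direct difference had no adjusted p under 0.05.

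At EC50 and day 3 the strongest rises from the control were of similar size in both forms, with the exception of contig00985. The 5 largest rises and 5 largest falls of each form were taken from probes past the threshold against the control. These probes were well above background on the arrays of the control and of that form, and the choice was made after values were seen. Choosing on the change in a form favours a larger change in that form, since its arrays also enter the direct difference. Contig01277 had levels of 3.90, 3.29 and 3.61 in Ni-NPs and 3.72, 3.67 and 3.52 in NiNO3, against 0.45, 0.06 and 0.62 in the control. The arrays of the forms overlapped and all lay far above the control, and the direct difference was -0.04 ± 0.29 (SE, 95% interval -0.63 to 0.56). It rose by 3.22 in Ni-NPs and by 3.26 in NiNO3 (adjusted p of 1.64e-06 and 1.3e-06), the largest rise of both selections. The direct difference of contig01277 changed its sign, still close to 0, without NiNO3 replicate 1 (0.0051) or without Ni-NPs replicate 2 (0.12). At EC20 and day 3 contig01277 was lower in Ni-NPs, with a difference of -1.30 (95% interval -1.90 to -0.71, unadjusted p = 0.00014, adjusted p = 0.265 with limma).

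GYUW2K402IP9J9 showed the same picture, with 2.79, 2.79 and 2.46 in Ni-NPs, 2.54, 2.60 and 2.70 in NiNO3 and -0.31, -0.38 and -0.34 in the control. Its rise was 3.02 in Ni-NPs and 2.96 in NiNO3, and the direct difference was 0.07 (95% interval -0.56 to 0.69), below 0 with scaling to spike-ins, SVCD or normexp. Contig19147, the brightest of the risers, reached 5.88, 5.6 and 5.36 in Ni-NPs and 5.36, 5.25 and 5.24 in NiNO3, from 1.90, 2.60 and 3.59 in the control. Its lowest Ni-NPs array and its highest NiNO3 array met, and the direct difference was 0.33 (95% interval -0.29 to 0.95). GYUW2K401BP9T5 differed by 0.13 (95% interval -0.93 to 1.19, below 0 with scaling to spike-ins, normexp, scan day as a block or without NiNO3 replicate 1), GYUW2K402HVQN1 by -0.39 (-1.26 to 0.48) and contig24978 by -0.39 (-0.95 to 0.18). For the last pair the rise was larger in NiNO3, 3.11 against 2.72 and 2.76 against 2.38, within the spread of the arrays.

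Contig00985 was the exception among the risers. Its levels were 2.0, 0.83 and 1.03 in Ni-NPs, 2.12, 2.96 and 3.28 in NiNO3 and 0.23, -0.59 and -0.42 in the control. The 3 Ni-NPs arrays lay between the control and the NiNO3 arrays and overlapped with neither. It rose by 1.55 in Ni-NPs (adjusted p = 0.0384) and by 3.05 in NiNO3 (adjusted p = 1.25e-05). The direct difference was -1.5 ± 0.32 (95% interval -2.17 to -0.83), 2.83-fold, with an unadjusted p of 0.000115 and an adjusted p of 0.706.

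Of the 8 probes with the strongest falls, 5 had every Ni-NPs array between the control and the NiNO3 arrays. The choice of some of them by their fall in NiNO3 favours this placing. Over all probes the arrays of the forms did not overlap in 12.8%. Contig02942 had 1.28, 2.71 and 2.0 in Ni-NPs, 1.2, -0.81 and -0.39 in NiNO3 and 3.44, 3.35 and 3.71 in the control. It fell by 3.50 in NiNO3 (adjusted p = 0.00124), and the difference from the control was -1.51 in Ni-NPs (adjusted p = 0.341). The direct difference was 1.99 ± 0.55 (95% interval 0.86 to 3.13, adjusted p = 1.0). GYUW2K401EB6BI, one of the brighter probes, had 4.34, 4.57 and 4.22 in Ni-NPs against 3.71, 2.61 and 2.30 in NiNO3 and 6.06, 5.70 and 6.73 in the control, a direct difference of 1.5 (95% interval 0.55 to 2.45). GYUW2K402IOYCC had 3.94, 4.55 and 4.42 in Ni-NPs against 3.89, 2.66 and 2.72 in NiNO3 and 6.05, 6.23 and 6.71 in the control, a direct difference of 1.21 (95% interval 0.45 to 1.97). In all 3 probes NiNO3 replicate 1 was the NiNO3 array nearest to the Ni-NPs arrays, and in contig02942 and GYUW2K402IOYCC it nearly met the lowest of them.

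Contig21200 had 0.60, 1.22 and 0.64 in Ni-NPs, 0.29, 0.04 and -0.37 in NiNO3 and 3.11, 2.65 and 3.26 in the control. It fell in both forms, by 2.19 in Ni-NPs and by 3.02 in NiNO3 (adjusted p of 0.00246 and 2.15e-05), and the direct difference was 0.83 (95% interval 0.13 to 1.53). Contig25491, GYUW2K402I9BJX and GYUW2K401DKAUB also fell in both forms, with direct differences of 0.58, 0.46 and 0.31 whose 95% intervals all held 0. Contig14066 went the other way. It lay at -3.90, -4.59 and -2.85 in Ni-NPs, not well above background on any of these arrays, at -2.22, -1.08 and -3.04 in NiNO3 and at 0.99, -0.16 and 1.33 in the control. Its level in Ni-NPs was at least 8.53-fold under the control (adjusted p = 0.00176) and at least 1.2-fold under NiNO3 (adjusted p = 1.0). Here and below, these bounds set the mean of the brighter group against a floor for each array of the dimmer group. The floor was the lowest signal that counted as well above background, or the probe's own signal where that was higher. The bounds hold no allowance for the spread between arrays or for error in the background.

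**Figure D2:**
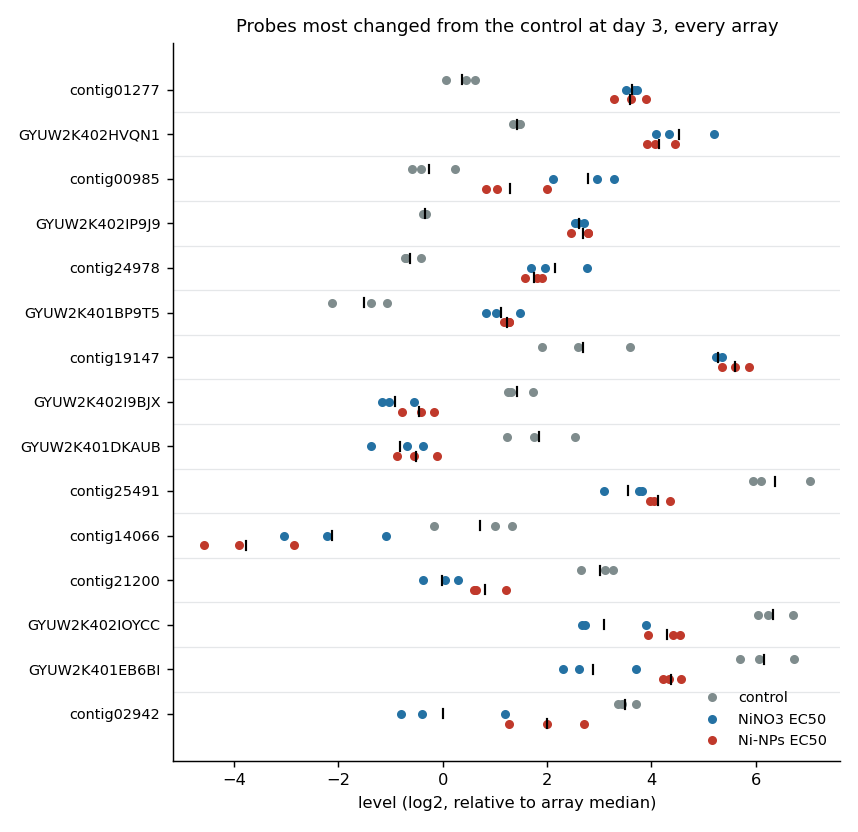
Level (log2 relative to the array median, horizontal axis) on each of the 3 control, 3 NiNO3 EC50 and 3 Ni-NPs EC50 arrays of day 3 for the 15 probes that made up the 5 largest rises and falls of either form; black bars are group means, and probes are ordered by their change in NiNO3. At the top both forms lie together far above the control, except contig00985. Among the falls below them the mean of Ni-NPs lies between those of the control and NiNO3, except contig14066. The choice of probes by their change in NiNO3 favours this placing.

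Nickel-responsive probes were also chosen on day 7, from the means of groups that hold none of the 6 arrays. The 6 arrays did enter the filter on probes and the shared estimate of the spread behind these calls. At day 7, 330 probes (1.34%) passed the threshold between NiNO3 EC50 and the control of that day, 168 over-expressed and 162 under-expressed, and 48 probes (0.195%) passed it for Ni-NPs EC50, 38 over-expressed and 10 under-expressed. Read on the day 3 arrays, 128 of the 168 probes over-expressed in NiNO3 were lower in Ni-NPs than in NiNO3, and 137 of the 162 under-expressed probes were higher in Ni-NPs. Over all probes 45.9% were lower and 54.1% higher. The median difference was -0.16 in the first group and 0.30 in the second, against 0.03 over all probes. Probes chosen on the particle arrays of day 7 were all among the 330 and had the same directions, with 29 of 38 over-expressed probes lower and 9 of 10 under-expressed probes higher in Ni-NPs at day 3, and medians of -0.09 and 0.34. Thus most probes above the control at day 7 were lower, and most probes below it higher, in the particle group than in the nitrate group at day 3. No test was run on these lists.

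The differences of these responsive probes were modest in size. Of the 330 probes, 52 had an unadjusted p under 0.05 in the direct comparison at day 3 (15.8%, against 3.17% of all probes), 10 differed by more than 1 and 0 passed the adjusted threshold. In 31 of the 168 and 56 of the 162 probes the groups did not overlap, 27 and 53 of them in the direction of the majority. These were 18.5% and 34.6% of the probes, against 12.8% of all probes, so the share of the first group was not far from that of all probes. Both groups of responsive probes were brighter than the typical probe, with median levels at the 63.3 and 67.6 percentile. On the arrays of a shared slide (NiNO3 replicate 1, Ni-NPs replicates 2 and 3), 118 of 168 were lower and 109 of 162 higher in Ni-NPs, against 13400 lower and 11253 higher of all probes. Of the probes chosen on the particle arrays of day 7, 21 of 38 were lower and 6 of 10 higher there. The share of the 38 was thus near that of all probes on the shared slide. Without NiNO3 replicate 3 the counts were 105 of 168 and 130 of 162. Scaled to spike-in transcripts, which moved the median difference of all probes from 0.03 to -0.28, they were 163 of 168 and 80 of 162, so that on that scale most of the under-expressed probes were not higher in Ni-NPs. At EC20 and day 3, in groups whose means entered neither the choice nor the direct comparison, 130 of the 168 were lower and 138 of the 162 higher in Ni-NPs. Of all probes, 12750 were lower and 11903 higher there. The EC20 arrays too entered the filter on probes and the shared estimate of the spread.

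**Figure D3:**
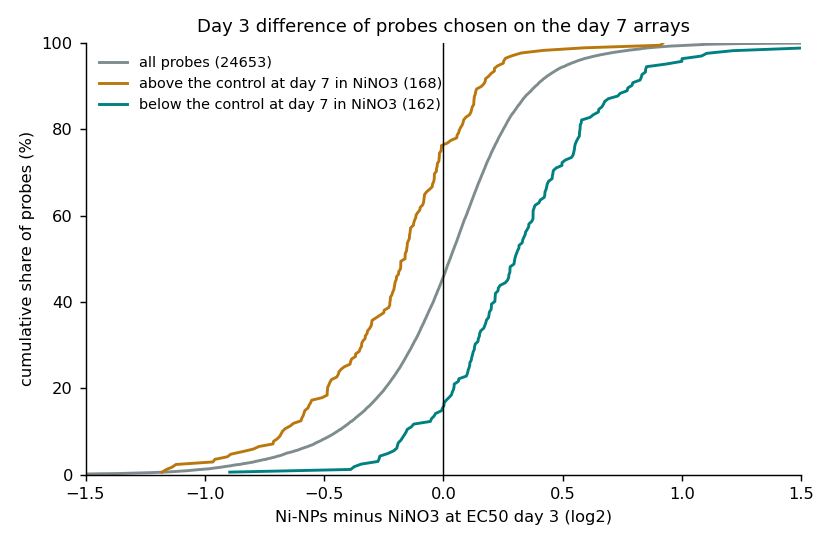
Cumulative share of probes (%, vertical axis) by their difference of Ni-NPs minus NiNO3 at EC50 and day 3 (log2, horizontal axis, drawn from -1.5 to 1.5). The curve of the 168 probes above the control at day 7 in NiNO3 lies to the left of that of all 24653 probes (medians -0.16 and 0.03), and the curve of the 162 probes below the control to the right (median 0.30).

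The strongest responders of day 7 were mixed. The 5 probes with the largest rise at day 7 in NiNO3 (contig07722, GYUW2K401AUZ0K, GYUW2K402HVQN1, GYUW2K402JE6WU and GYUW2K401BYI0P) had day 3 differences of 0.20, -0.08, -0.39, -0.10 and -0.49, and the signs of all but GYUW2K402HVQN1 and GYUW2K401BYI0P changed with some alternatives. Of the 5 with the largest fall, contig21200, contig02942, GYUW2K401EB6BI and GYUW2K402IOYCC, described above, were higher in Ni-NPs, and contig24773 differed by -0.19, above 0 with normexp or without NiNO3 replicate 1. None of these had an adjusted p under 0.05 at day 3. Contig07722, GYUW2K401AUZ0K and contig24773 had moved from the control by less than 1 in either form at day 3.

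The probes closest to the threshold in the direct comparison were mostly dim. Since no probe passed, the 10 with the lowest unadjusted p are described, none of them past the threshold. The arrays of the groups did not overlap in any of the 10, which their choice by p favours (12.8% of all probes had such groups). Of the 10, 8 were lower in Ni-NPs. Of these 8, contig05383, GYUW2K401BCC7B, GYUW2K402HDPW1 and GYUW2K401CQGLZ, were not well above background on any Ni-NPs array.

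Contig05383 came first. It was at -3.42, -3.40 and -2.92 in Ni-NPs, at -1.88, -1.80 and -2.13 in NiNO3 and at -2.66, -2.27 and -2.41 in the control. Every Ni-NPs array lay below every control array, and every NiNO3 array above. The direct difference was -1.31 ± 0.21 (95% interval -1.75 to -0.87, unadjusted p = 2.7e-06, adjusted p = 0.0665). As the Ni-NPs arrays were not well above background, the fold is given as a bound, with NiNO3 at least 1.35-fold higher on this scale. It was the single probe that passed the threshold with MedianCD (adjusted p = 0.038), with SVCD (0.0221) and with slide as a random block (0.0328), and with normexp background correction its difference was 0.00.

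GYUW2K401BCC7B was at -4.09, -2.94 and -3.37 in Ni-NPs, -2.0, -2.18 and -1.24 in NiNO3 and -1.97, -1.83 and -1.51 in the control. Its NiNO3 and control arrays overlapped, and NiNO3 was at least 1.48-fold above Ni-NPs. GYUW2K402HDPW1 was at -2.55, -3.73 and -3.18 in Ni-NPs and at -1.5, -2.30 and -1.87 in NiNO3, which was at least 1.40-fold higher. GYUW2K401CQGLZ was at -4.42, -3.64 and -3.41 in Ni-NPs, near the control, and at -2.78, -2.26 and -2.71 in NiNO3, and no fold is given since the NiNO3 mean was below the background floor of the Ni-NPs arrays. Contig26320 and GYUW2K402HNVLC, well above background on 1 and 2 of the Ni-NPs arrays, both differed by -1.31.

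The remaining 4 probes were well above background on all 6 arrays. Contig14775 had 1.42, 3.1 and 2.01 in Ni-NPs, 0.19, -0.62 and 0.93 in NiNO3 and 2.19, 2.29 and 2.70 in the control. The Ni-NPs arrays overlapped with the control, and NiNO3 lay below both. The direct difference was 2.01 ± 0.42 (95% interval 1.14 to 2.87), 4.02-fold, with an unadjusted p of 7.27e-05 and an adjusted p of 0.706. From the control it fell by 2.22 in NiNO3 (adjusted p = 0.00734), and the difference was -0.22 in Ni-NPs (adjusted p = 0.892). GYUW2K402IOBJZ had the tightest groups, with 2.27, 2.0 and 2.06 in Ni-NPs, 1.44, 1.32 and 1.35 in NiNO3 and 1.74, 1.5 and 1.51 in the control. Its difference was 0.74 ± 0.17 (95% interval 0.39 to 1.09, adjusted p = 0.812). Contig19427 was at -1.71, -1.91 and -1.42 in Ni-NPs and at -0.65, -0.37 and 0.76 in NiNO3, a difference of -1.59 ± 0.36 (adjusted p = 0.812). Contig00985, described above, was the last of the 4. On the shared slide all 10 probes had the same direction, as they must where the groups do not overlap.

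**Figure D4:**
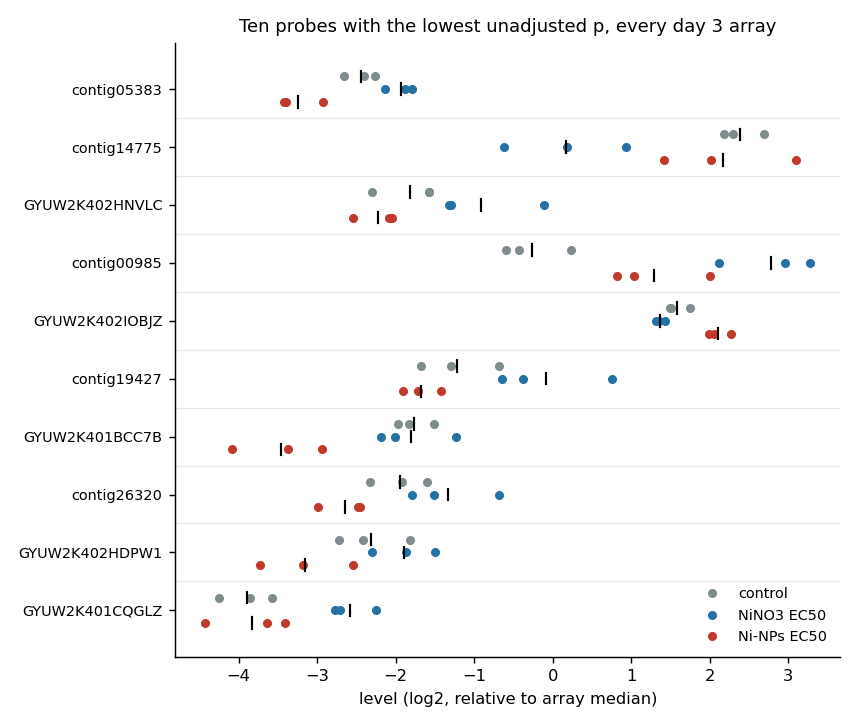
Level (log2 relative to the array median, horizontal axis) on each control, NiNO3 EC50 and Ni-NPs EC50 array of day 3 for the 10 probes with the lowest unadjusted p; black bars are the means of 3 arrays. Ni-NPs (red) and NiNO3 (blue) points are separate in all 10 probes, as the choice of the probes favours, and Ni-NPs lie to the left of NiNO3 in 8.

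The largest differences between non-overlapping groups were 2.86 and -2.0. The 5 largest each way were taken among probes well above background on the 3 arrays of the higher group, also after values were seen. Contig20094 had 1.52, 3.31 and 1.62 in Ni-NPs, -1.16, -0.40 and -0.58 in NiNO3 and 1.16, 1.42 and 2.64 in the control, a difference of 2.86 ± 0.79 (95% interval 1.23 to 4.5, adjusted p = 1.0). Ni-NPs and the control overlapped, and NiNO3 lay below both. Contig19057 (2.13) and contig19694 (1.85) varied so much between arrays of a group that their 95% intervals held 0. At the other end GYUW2K402IKQVV had -1.99, -2.76 and -2.21 in Ni-NPs, near the control, and 0.78, -0.67 and -1.07 in NiNO3, a difference of -2.0 ± 0.51. GYUW2K402GP14E was not well above background on any Ni-NPs array, and NiNO3 was at least 3.12-fold higher (adjusted p = 1.0). GYUW2K402J0MUM was likewise not well above background on any Ni-NPs array, and NiNO3 was at least 1.47-fold higher (adjusted p = 1.0). Contig13726 and GYUW2K402F6I6Q differed by -1.99 and -1.90. In GYUW2K402IKQVV, GYUW2K402GP14E and GYUW2K402F6I6Q the highest of the 6 arrays was NiNO3 replicate 1, at 0.78, 0.56 and 1.15.

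Detection itself was unequal. Over all 43750 gene probes, 602 were well above background on all 3 NiNO3 arrays and on none of the Ni-NPs arrays, and 1 was so the other way round. For 331 of the 602 the bound on the fold was above 1, and for 13 it was at least 2-fold. The single probe seen only in Ni-NPs was contig16427, with -2.01, -0.40 and -1.44 in Ni-NPs against -2.74, -2.73 and -4.74 in NiNO3. Ni-NPs was at least 3.65-fold higher, it was outside the probes tested, and it was well above background on 0 of the 3 control arrays. These counts and the share of probes well above background per array come from the same flag, and the part of detection in them was not tested. At EC20 and day 3 the inequality ran the opposite way, with 232 probes only in Ni-NPs and 1 only in NiNO3, and at EC50 and day 7 it was 53 and 27.

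The difference between the forms was then read on the arrays of EC50 at day 7 and of EC20 at day 3, which share none with the direct comparison at day 3. At day 7, 1 probe (0.00406%) passed the threshold, and at EC20 0 probes (0%) did. At an unadjusted p under 0.05 there were 730 (2.96%) at day 7, again below a share of 0.05, and 2210 (8.96%) at EC20. The counts past the threshold depended on the scaling and the slide: day 7 gave 0 probes with spike-ins or with slide as a fixed block, 6 with MedianCD and 15 with normexp, and EC20 gave 2202 with MedianCD and 117 with SVCD. The probe of day 7 was contig12382, with a difference of 1.62 (95% interval 1.12 to 2.11, adjusted p = 0.0145). At EC50 and day 3 it had 1.37, 1.33 and 0.78 in Ni-NPs and 0.60, 0.44 and 0.59 in NiNO3. The Ni-NPs arrays were all higher, with a difference of 0.61 (95% interval 0.12 to 1.11), and at EC20 it was 0.69 (95% interval 0.20 to 1.19). No probe passed the threshold for a change of the difference between day 3 and day 7 or between EC20 and EC50 (0% each). Unadjusted p under 0.05 was found in 566 and 1781 probes of these limma tests.

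Over all probes the difference at day 3 had little relation with that at day 7. Across probes, which are not independent replicates and share array-wide shifts, Pearson's r was -0.03 with day 7 and -0.25 with EC20, and 47.4% and 41.7% of the probes had the same sign. Of the 782 probes with an unadjusted p under 0.05 at EC50 and day 3, 423 (54.1%) had the same sign at day 7 and 357 (45.7%) at EC20. Most of them thus had no steady direction across the exposures. A set of 35 probes had an unadjusted p under 0.05 with a single sign in all 3 comparisons, 25 higher and 10 lower in Ni-NPs, and as they were selected on that agreement no test was made.

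Of the 10 probes with the lowest p, 5 had the same sign at day 7 and 7 at EC20. GYUW2K402IOBJZ was the steadiest, with differences of 0.74 at EC50 and day 3, 0.65 at day 7 (95% interval 0.31 to 1.0) and 0.61 at EC20 (95% interval 0.26 to 0.96). Contig14775 differed by 0.55 at day 7 (95% interval -0.32 to 1.41) and by 1.26 at EC20 (95% interval 0.39 to 2.12). Contig00985 differed by -0.07 at day 7 and by -0.85 at EC20 (95% interval -1.52 to -0.18). Contig05383 was close to 0 in both, at -0.19 (95% interval -0.63 to 0.25) and -0.01 (95% interval -0.46 to 0.43). Contig02942 was higher in Ni-NPs in each, by 1.68 at day 7 and by 1.30 at EC20, and GYUW2K401EB6BI by 1.54 and 1.52. Contig14950, chosen after its values were seen, had 3.33, 4.26 and 4.01 in Ni-NPs against 3.20, 1.07 and 2.15 in NiNO3 at EC50 and day 3, a difference of 1.73 (95% interval 0.73 to 2.72), and differed by 1.68 at day 7 and by 2.24 at EC20. None of these differences had an adjusted p under 0.05.

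**Figure D5:**
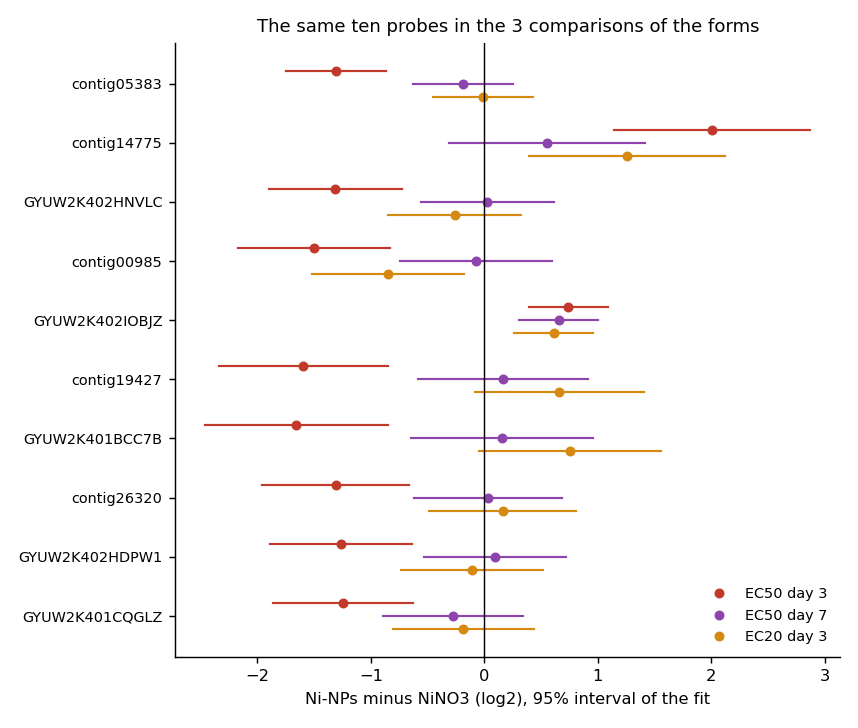
Difference of Ni-NPs minus NiNO3 (log2, horizontal axis) with its 95% interval from limma for the 10 probes with the lowest unadjusted p at EC50 and day 3, beside the same difference at EC50 and day 7 and at EC20 and day 3, 3 arrays a group. The intervals of EC50 and day 3 exclude 0 by the choice of the probes; at day 7 only that of GYUW2K402IOBJZ does, and at EC20 those of contig14775, contig00985 and GYUW2K402IOBJZ.

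The spread between arrays was small in the Ni-NPs group. The median SD of a probe over the 3 arrays was 0.19 in Ni-NPs at EC50 and day 3, as in NiNO3 at EC50 and day 7 (0.19), and 0.31 in NiNO3 at EC50 and day 3. All 10 groups lay between 0.19 and 0.45. Ni-NPs replicates 2 and 3 lay on the same slide, as did replicates 2 and 3 of NiNO3 at EC50 and day 7. None of the NiNO3 arrays of EC50 and day 3 shared a slide with another of its group. The part of this layout and of scan day in the spread was not tested.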

How the data were processed

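Total RNA of pools of 20 *E. crypticus* was hybridised by the authors to 1-colour Agilent 4x44k arrays, with an array for each biological replicate. The deposited values are spot intensities (processed signal) from Agilent Feature Extraction 10.7.3.1, background-corrected, on a linear scale and not normalised between arrays; a deposited summary table holds the same intensities rounded (largest log2 difference 0.00719). The deposited columns used as other than intensities are the software's flags. Groups and replicate numbers came from the labels.

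Of 43750 non-control probes, the 24653 flagged as significantly above background on all 30 arrays were kept, and each array's log2 intensities were centred on their median. None of the 24653 was saturated. With limma 3.58.1 in R 4.3.3, 1 mean per group was fitted to 30 arrays (20 residual and 3.46 prior degrees of freedom), each contrast adjusted by Benjamini-Hochberg at 0.05. The fit was tested on simulated data. Only 3 arrays per group limit the precision.

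The groups compared and the probe lists were chosen with earlier results of these data known. Named probes were the 10 with the lowest unadjusted p, as no probe passed the threshold, plus those said to be chosen later. Alternatives were other scalings (75th percentile, quantile, 7 of 10 spike-ins with 32 spots each, MedianCD and SVCD with the study's code), filters, normexp with offset 50, the summary table, slide, scan day and replicate blocks, the 6 arrays alone, the equal-variance test and leaving out each of the 6 arrays.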

Additional observations from a re-analysis of the deposited data

How the results depend on the processing

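The direct comparison at EC50 and day 3 gave 0 probes under every alternative run except MedianCD, SVCD and slide as a random block (within-slide correlation 0.283), each of which gave 1 probe, contig05383, lower in Ni-NPs; without each replicate in turn it gave 0 to 0. The cause was not tested. Slide as a random block and normexp on the median signal were chosen after seeing the data, and the planned normexp on the mean signal was not run because the files used here hold the median signal. With the replicate block the direct comparison gave 0 probes, day 7 gave 1, EC20 gave 0, and Ni-NPs and NiNO3 against the control gave 82 and 201. Deviations of same-numbered arrays correlated at -0.04, 0.01 and 0.04, and those of differently numbered arrays between -0.08 and 0.07. With 3 arrays a group this does not settle whether a replicate number marks shared handling.

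Ni-NPs against the control gave 5 probes with spike-in scaling, 16 with normexp, 16 with slide as a fixed block, and 17 to 56 without single replicates. NiNO3 against the control gave 27 with spike-in scaling, 332 with MedianCD, 62 with normexp, 65 with slide as a fixed block, and 69 to 152 without its single replicates. The share of these calls above the control was 50.9% for Ni-NPs and 47.2% for NiNO3, but 60.0% and 77.8% with spike-ins, 81.7% and 84.3% with MedianCD, 65.5% and 77.3% with SVCD and 31.3% and 33.9% with normexp. The forms at day 7 gave 0 probes with spike-ins and with the fixed slide block, 6 with MedianCD, 3 among probes well above background, 15 with normexp and 2 with scan day as a block. At EC20 they gave 2202 with MedianCD, 117 with SVCD and 2 with the fixed slide block. The change between days gave 8 probes with normexp. Of the 162 probes lowered at day 7, 80 were higher in Ni-NPs with spike-in scaling.

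Differences of named probes changed sign as follows. GYUW2K401AUZ0K was at 0.049 with quantile normalisation, 0.11 with normexp, 0.45 and 0.15 with slide as a fixed and a random block, 0.27 with scan day, and -0.36 to 0.26 without single replicates. GYUW2K402IP9J9 was at -0.24 with spike-ins, -0.027 with SVCD and -0.11 with normexp. GYUW2K401BP9T5 was at -0.17 with spike-ins, -0.062 with normexp, -0.021 with scan day and -0.011 to 0.32 without single replicates. With spike-ins contig07722 was at -0.10. With normexp contig05383 was at 0.0028, GYUW2K401CQGLZ at 0.015 and contig24773 at 0.047. Without single replicates contig24773 ranged from -0.58 to 0.18, contig01277 from -0.19 to 0.12 and GYUW2K402JE6WU from -0.30 to 0.12. Dim probes and 3 arrays a group both limit the comparison, and 17007 of the 24653 probes were well above background on all 30 arrays.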
